A study of Mus musculus with 2 samples.

Results

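The Hox genes encode homeodomain transcription factors and lie in 4 clusters, Hoxa on chromosome 6, Hoxb on chromosome 11, Hoxc on chromosome 15 and Hoxd on chromosome 2 of the mouse genome. The genes described here are those whose symbol is Hoxa, Hoxb, Hoxc or Hoxd followed only by a number, which takes 35 of the 22652 genes with a count in either library. All 35 were listed in the wild type and 34 in the Bmx-CreER Wls library, where Hoxc13 had no UMI. Hoxb13, Hoxc12, Hoxd4 and Hoxd12 were listed in neither. The study profiled fetal femurs by single-cell whole-transcriptome RNA sequencing on BD Rhapsody, where a molecular tag (UMI) lets every captured transcript be counted once. Both libraries come from embryos at E18.5 after magnetic depletion of lineage-committed blood cells, and there is 1 library per genotype. By the methods, wild-type mice were C57BL/6 and conditional mutants were kept on a predominantly C57BL/6 background. One library is wild type, and for it the litter and any tamoxifen treatment are not stated in the sources used here. The other is labelled Bmx-CreER Wls: Cre under the Bmx promoter, active in arterial endothelium, is induced by tamoxifen given to the pregnant dam. It recombines floxed Wls, whose product is needed for Wnt secretion. The labels name bone marrow as the source, while the methods describe whole femurs that were crushed and treated with collagenase, and cartilage, tendon and blood vessel cells were present in both libraries. The wild-type library holds 5998 barcodes with 22708005 UMIs and the Bmx-CreER Wls library 6825 barcodes with 24704991 UMIs. After the filter on genes and mitochondrial share, 5736 and 6620 cells remained, with medians of 3128 and 3067 UMIs. The libraries share 48 barcodes among the kept cells, 0.837% of the wild-type and 0.725% of the Bmx-CreER Wls cells. A level is given in CPM, the UMIs of a gene scaled to a total of 1000000 UMIs in the cells named. A pair of values gives the wild type first and the Bmx-CreER Wls library second. Parentheses hold exact 95% intervals, which cover counting error only. Hox genes gave 9463 UMIs in the kept wild-type cells, or 425 CPM (416 to 434), and 12353 in the kept Bmx-CreER Wls cells, or 507 CPM (498 to 516). With 1 library per genotype there are no replicates, so no test was run. A difference between the libraries cannot be told apart from any other difference between the 2 preparations.

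Along each cluster the genes keep an order that is shared between clusters, so that genes of the same number are paralogues, and low numbers are expressed towards the head and high numbers towards the tail of the embryo. In the limb the high-numbered genes of the Hoxa and Hoxd clusters set the pattern of the skeleton from the hip to the toes, and Hoxc10 belongs to the genes that mark the hindlimb rather than the forelimb. In blood, Hoxa genes, with Hoxa9 the best known among them, act in stem and progenitor cells and are switched off as these mature.

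Wls, the gene recombined in the Bmx-CreER Wls embryos, was examined first. In the endothelial class its level was 43.2 and 23.0 CPM (87 and 42 UMIs), a ratio of the Bmx-CreER Wls library to the wild type of 0.532 (0.359 to 0.778). In the arterial endothelial-like cluster, where Bmx-driven Cre acts, 10 and 3 UMIs were counted, a ratio of 0.262 (0.0464 to 1.02). Stromal cells, which the Cre is not meant to reach, had a ratio of 0.741 (0.678 to 0.809), and cartilage cells one of 0.951 (0.863 to 1.05). Wls was thus lower in endothelial cells of the library labelled Bmx-CreER Wls, the arterial interval includes 1, and the stromal level was lower as well. The floxed exon is not given in the sources used here, and a 3' tag outside the deleted stretch would check nothing.

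Cells of both libraries were clustered together without any Hox gene among the variable genes, and 14 of the 16 clusters could be named from marker genes. These names were rebuilt from markers and differ from those of the authors, and the classes are sums of named clusters. The stromal class joins stromal fibroblast-like (0), tendon-like (1) and osteoblast-like (12) clusters, and the cartilage class joins an Epyc-led chondrocyte-like (3), a Col10a1-led hypertrophic chondrocyte-like (4), a Prg4-led superficial chondrocyte or synovial-like (8) and a Ucma-led chondrocyte-like (9) cluster. The endothelial class holds cluster 10, led by Cd36, Fabp4 and Gpihbp1, the sinusoidal endothelial-like cluster 13 and the arterial endothelial-like cluster 15, and mural cells form cluster 2. Blood cells were clustered again to set multipotent haematopoietic stem and progenitor (HSPC)-like, erythroid-like and osteoclast-like cells apart. Cluster 6, led by Hbegf, Clic5 and Tspan15, and cluster 7, led by Stc1 and Bpifb1, were named by no list. The naming rule asked for at least 3 markers and for a marker among the leading genes, and it was set after seeing the data. Cluster 6 held 4.13% and 3.78% of the cells and cluster 7 held 7.62% and 10.4%. The classes hold 718 and 469 haematopoietic, 1410 and 947 stromal, 2175 and 3647 cartilage, 591 and 465 endothelial and 168 and 153 mural cells. The cluster with the largest share of the stromal and of the cartilage class differed between the libraries. Fibroblast-like cells had 45.5% and 27.5% and tendon-like cells 25.2% and 46.1% of the stromal UMIs. The Epyc-led cluster had 38.7% and 26.1% and the Ucma-led cluster 20.8% and 35.2% of the cartilage UMIs. The mural cluster also held cells of other kinds, with all 8 skeletal muscle markers (1595 and 626 CPM, Acta1 and Myog in front) and 5 of 7 Schwann or neural markers (680.1 and 711 CPM, with Tubb3 and Elavl4 at 0). Myod1 was found in 9 of 168 and 11 of 153 mural cells and Sox10 in 22 and 15, against the mural genes Notch3 in 127 and 126 and Rgs5 in 113 and 103. A set of 112 cells per library stayed mural at a finer resolution.

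Summed over all Hox genes, haematopoietic cells had a far lower level than each of the other classes, while stromal, endothelial and mural cells lay close together and cartilage somewhat below them. Haematopoietic cells had 103 (94.4 to 112) and 117 (105 to 129) CPM of Hox genes, and stromal cells had 578 (557 to 599) and 602 (577 to 628). In cartilage cells the level was 419 (404 to 434) and 492 (479 to 504), in endothelial cells 597 (563 to 631) and 673 (636 to 711) and in mural cells 618 (553 to 689) and 652 (588 to 720.2). The order of haematopoietic below cartilage below stromal cells was the same in both libraries. Relative to stromal cells, the haematopoietic level was 0.178 (0.162 to 0.195) and 0.194 (0.173 to 0.216) times as high and the cartilage level 0.725 (0.689 to 0.762) and 0.816 (0.777 to 0.858) times. The endothelial ratio of 1.03 (0.965 to 1.10) and 1.12 (1.04 to 1.20) includes 1 in the wild type only, and the mural ratio of 1.07 (0.952 to 1.20) and 1.08 (0.968 to 1.21) includes 1 in both libraries. Clusters within a class differed as well. Arterial endothelial-like cells had the highest Hox sum of all clusters, at 887 (773 to 1013) and 1058 (941 to 1185) CPM, which is 1.596 (1.36 to 1.86) and 1.70 (1.48 to 1.95) times that of cluster 10. Hypertrophic chondrocyte-like cells, which are enlarged and about to be replaced by bone, had 225 (205 to 246) and 258 (238 to 279), against 675 (624 to 729.7) and 589 (557 to 622) in superficial chondrocyte or synovial-like cells (superficial cells below), a ratio of 0.333 (0.295 to 0.375) and 0.438 (0.397 to 0.482). The median depth was 6680 and 6589 UMIs in hypertrophic and 2319 and 2651 in superficial cells. A Hox UMI was found in 71.4% and 75.7% of hypertrophic and 78.2% and 73.5% of superficial cells. The lower hypertrophic level is thus relative to the total UMIs of these deeper cells. Osteoblast-like cells had 460.1 (427 to 496) and 460.2 (418 to 506), below the 661 and 668 of tendon-like cells. Their median depth was higher, at 4267 and 4920.5 against 2502.5 and 2780 UMIs. A Hox UMI was found in 84.0% and 82.8% of osteoblast-like and 78.7% and 81.3% of tendon-like cells. The unnamed clusters were high as well, at 655 and 748 in cluster 6 and 695 and 751 in cluster 7. In blood, multipotent HSPC-like cells reached 412 (369 to 459) and 450.1 (391.7 to 515) and the remaining haematopoietic cells together 45.8 and 61.0, a ratio of 8.996 (7.52 to 10.8) and 7.38 (6.01 to 9.07). Without the blood groups led by markers of other classes, the remaining cells had 36.2 and 44.2. Erythroid-like cells had 20.4 (14.0 to 28.8) and 27.4 (16.2 to 43.2) and osteoclast-like cells 23.1 and 25.8, low levels that the neutrophil-like cluster 14 shared, with 2 and 6 Hox UMIs in 39 and 50 cells. Other blood groups lay higher, with 117 and 116 in granulocyte-monocyte progenitor-like cells and 68.3 and 70.8 in the larger basophil or mast cell-like group. The smaller group of that name had 0 Hox UMIs. Chondrocyte markers were counted in every class, and outside cartilage, where the 11 of 13 listed genes that were in the files sum to 122864 and 110990.0 CPM, they were at 1502 and 1832 CPM in haematopoietic, 3085 and 4889 in stromal, 2607 and 2854 in endothelial and 3335 and 2045 in mural cells. Of the haematopoietic Hox UMIs, 480 and 330 of 530 and 386 were in blood groups not led by markers of another class.

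**Figure D1:**
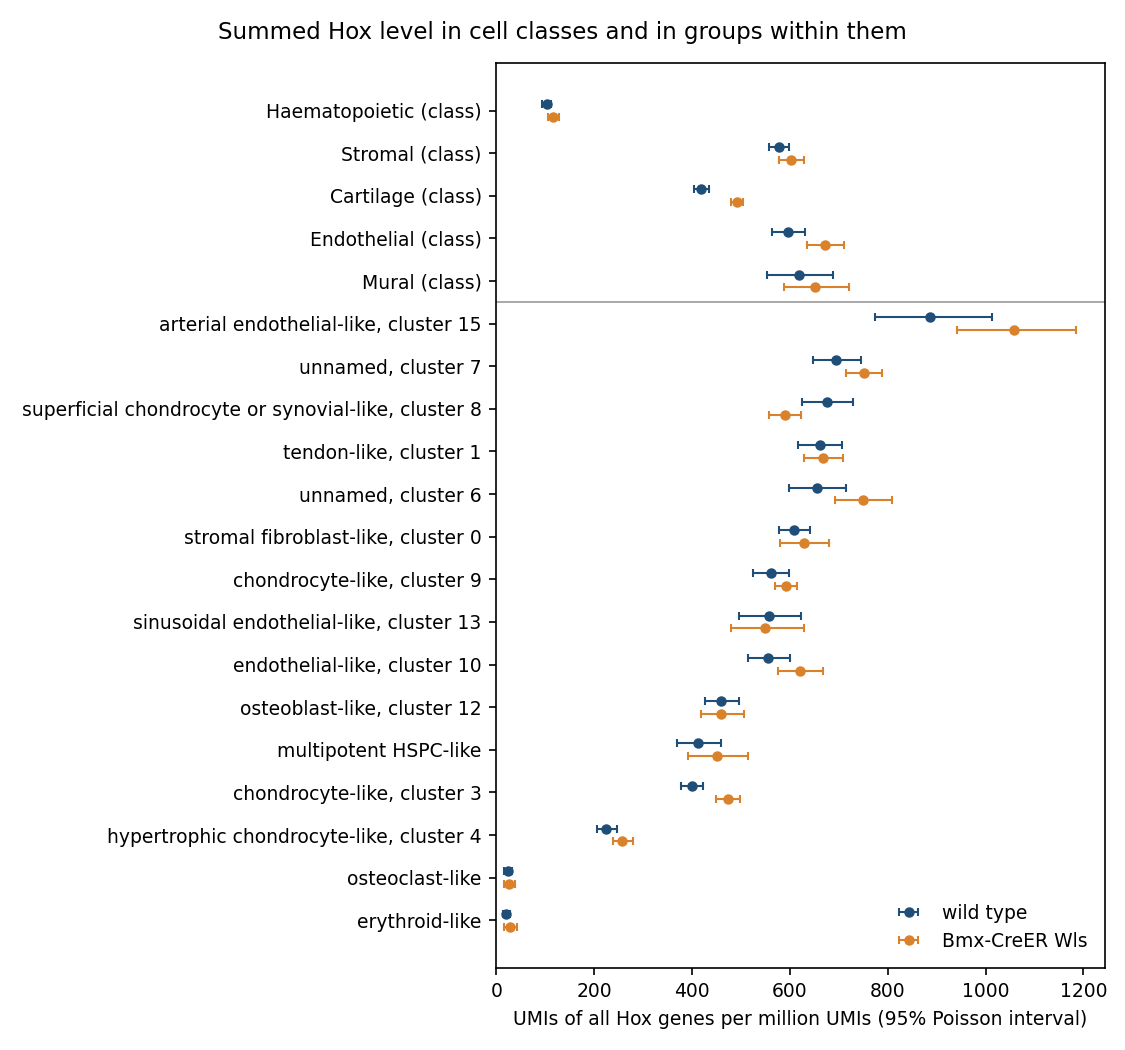
Summed level (CPM) of all Hox genes in the 5 classes (top) and in clusters and blood groups within them (bottom), with exact 95% Poisson intervals, for the wild-type (blue) and the Bmx-CreER Wls library (orange). Arterial endothelial-like cells stand at the top of the clusters with 887 and 1058 and erythroid-like cells are among the lowest with 20.4 and 27.4.

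Shares of cells with a Hox UMI were read beside erythroid-like cells, which should lack the limb Hox transcripts and were sequenced more deeply. At least 1 Hox UMI was found in 82.4% and 82.6% of stromal cells (median depth 3288 and 3333 UMIs) and in 14.0% and 15.1% of erythroid-like cells (median depth 9493.5 and 9643). The shares were 77.2% and 82.2% of endothelial, 73.2% and 86.3% of mural and 71.4% and 74.4% of cartilage cells at medians of 2981 and 3303 UMIs in endothelial, 2926 and 3568 in mural and 2843 and 2808 in cartilage cells. Haematopoietic cells had 33.1% and 33.7% at 7015 and 6844 UMIs, and multipotent HSPC-like cells 82.3% and 80.5% at 5551 and 5553. All of these lie above the erythroid-like share although the cells were shallower, and the haematopoietic share depends on which blood cells the lineage depletion left. With each cell thinned to 1000 UMIs, the shares were 44.9% and 46.0% in stromal, 42.6% and 46.9% in endothelial, 46.7% and 48.0% in mural and 36.9% and 40.2% in cartilage cells. They were 36.7% and 38.3% in multipotent HSPC-like cells, 10.9% and 12.99% in all haematopoietic cells and 2.37% and 4.29% in erythroid-like cells. The thinning left out 28 and 12 stromal, 16 and 9 endothelial, 1 and 1 mural, 47 and 120 cartilage, 11 and 7 haematopoietic, 2 and 1 multipotent HSPC-like and 3 and 3 erythroid-like cells with fewer UMIs. A cell had a mean of 1.69 and 2.08 different Hox genes in the endothelial, 1.65 and 1.79 in the stromal, 1.53 and 2.01 in the mural and 1.23 and 1.35 in the cartilage class, with a highest value of 8 in an endothelial cell of each library. After thinning these means were 0.565 and 0.651 in endothelial, 0.567 and 0.606 in stromal, 0.599 and 0.645 in mural and 0.454 and 0.502 in cartilage cells.

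**Figure D2:**
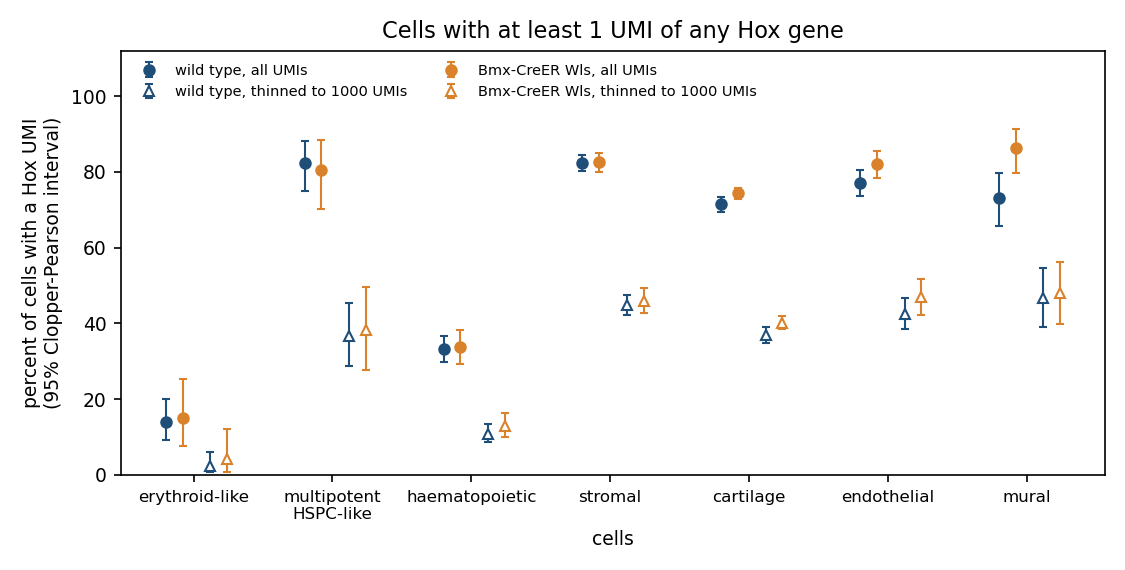
Percent of cells with at least 1 Hox UMI in each group of cells and library, with 95% Clopper-Pearson intervals, as counted and with each cell thinned to 1000 UMIs. After thinning, erythroid-like cells had 2.37% and 4.29% and mural cells 46.7% and 48.0%.

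The classes also differed in which cluster and which end of the clusters the UMIs came from. Most haematopoietic Hox UMIs were Hoxa, with 87.7% (84.6 to 90.4) and 89.1% (85.6 to 92.0) from that cluster, and in multipotent HSPC-like cells 94.3% and 98.1%. Endothelial cells drew their largest share from Hoxb, 44.1% (41.3 to 47.0) and 42.3% (39.5 to 45.1), with 28.4% and 30.9% from Hoxd and 25.6% and 25.1% from Hoxa. Hoxc made up 1.91% and 1.63% of endothelial Hox UMIs but 52.6% (47.0 to 58.1) and 50.5% (45.4 to 55.6) of those of mural cells. Blood thus had Hoxa, endothelium Hoxb with Hoxd and Hoxa, and mural cells Hoxc in front, in both libraries. Stromal cells split between Hoxa (45.3% and 49.6%) and Hoxc (46.7% and 39.1%), and cartilage did the same with 44.7% and 45.5% Hoxa and 42.3% and 42.2% Hoxc. Hoxb was nearly missing from both, with 2.21% and 1.16% of stromal and 0.315% and 0.304% of cartilage Hox UMIs. Hoxd made up 12.7% and 12.01% of the cartilage, 5.80% and 10.1% of the stromal and 2.43% and 4.17% of the mural Hox UMIs.

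By position, the genes were read as anterior (paralogue groups 1 to 3), central (4 to 8) and posterior (9 to 13). Posterior genes gave 75.6% (74.0 to 77.2) and 75.2% (73.3 to 77.0) of Hox UMIs in stromal and 73.3% (71.7 to 74.8) and 72.9% (71.7 to 74.0) in cartilage cells. In endothelial cells the posterior share was 21.1% (18.9 to 23.6) and 22.3% (19.995 to 24.7), and central genes gave 71.6% and 70.4%. Mural cells had a posterior share of 61.1% and 59.4% and haematopoietic cells one of 61.5% and 61.9%. Skeletal and stromal cells were thus mostly posterior and endothelial cells mostly central. The haematopoietic value rests on group 9: counted from group 10 on, the posterior share was 7.55% and 10.4% in haematopoietic cells, against 46.9% and 47.2% in stromal, 49.3% and 49.9% in cartilage, 24.9% and 31.8% in mural and 3.41% and 4.48% in endothelial cells. Anterior genes were rare, with 7.24% and 7.32% in endothelial cells and 1.91% and 2.46% in stromal, 1.89% and 1.75% in cartilage, 2.08% and 1.55% in haematopoietic and 0.608% and 1.30% in mural cells. Among the stromal clusters the posterior share was lowest in osteoblast-like cells, at 63.7% and 61.1%, against 79.8% and 79.0% in fibroblast-like and 78.3% and 78.7% in tendon-like cells. Among cartilage clusters it was lowest in hypertrophic cells, at 61.5% and 67.5%, and it was 74.2% and 74.6% in superficial cells and 75.3% and 74.8% in the Ucma-led cluster. The endothelial clusters were alike in this, with 19.3% and 25.3% in arterial, 20.2% and 21.3% in sinusoidal endothelial-like cells and 22.1% and 21.4% in cluster 10.

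**Figure D3:**
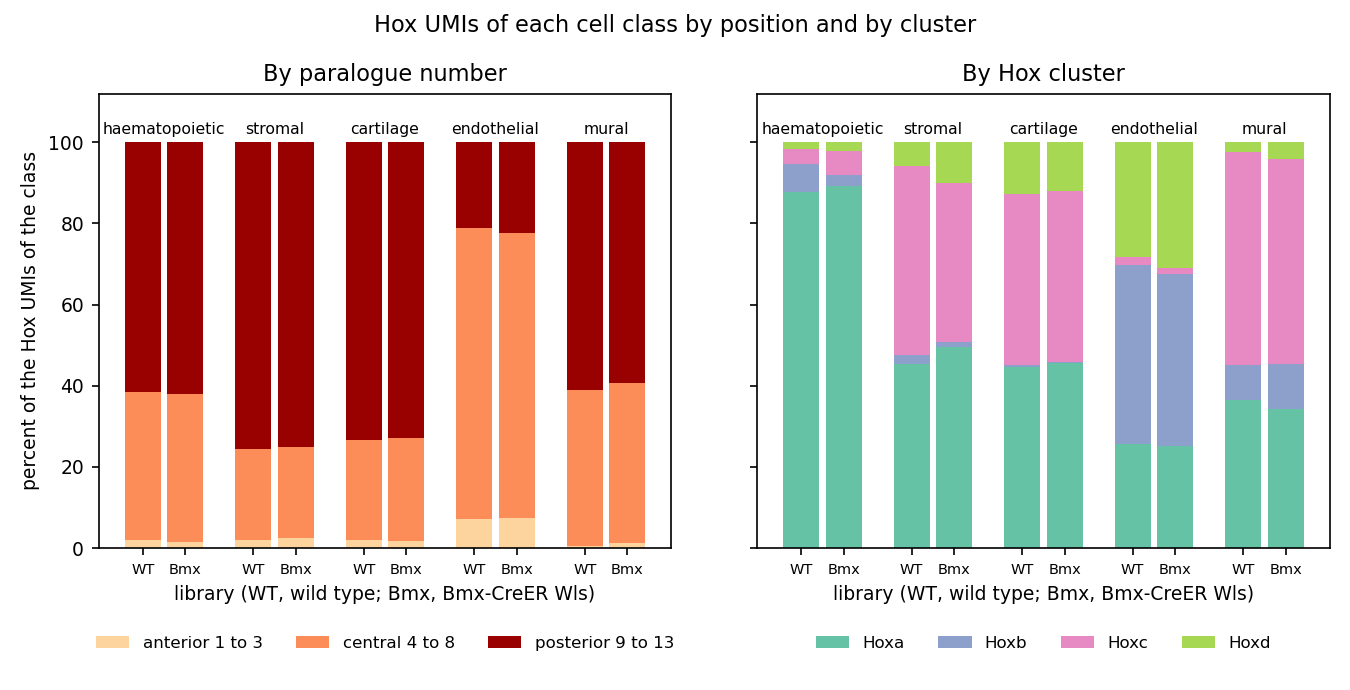
Percent of the Hox UMIs of each class and library that came from the Hoxa, Hoxb, Hoxc and Hoxd clusters and from anterior (1 to 3), central (4 to 8) and posterior (9 to 13) paralogue groups. Endothelial cells stand out by their Hoxb and central shares, haematopoietic cells by Hoxa and mural cells by Hoxc.

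To see how often Hox genes differed from stromal cells, genes with at least 100 UMIs in each library were counted when their level was at least 2-fold higher or lower than in stromal cells in both libraries. In all, 10879 genes passed this filter, 16 of the 35 Hox genes among them. In haematopoietic cells 10 of the 16 Hox genes were at least 2-fold lower (Hoxa10, Hoxa11, Hoxc4, Hoxc6, Hoxc8, Hoxc9, Hoxc10, Hoxd3, Hoxd8 and Hoxd9) and 0 were higher (all genes 19.8% lower and 22.7% higher). Endothelial cells had 6 Hox genes at least 2-fold higher (Hoxa7, Hoxb4, Hoxb7, Hoxb8, Hoxd3 and Hoxd8) and 8 lower (Hoxa9, Hoxa10, Hoxa11, Hoxc4, Hoxc6, Hoxc8, Hoxc9 and Hoxc10), with 10.4% of all genes higher and 12.7% lower. Only Hoxa5 and Hoxd9 of the 16 fell in neither endothelial group. In cartilage cells 0 Hox genes were 2-fold higher and 1, Hoxb4, was lower (all genes 4.7% higher and 11.6% lower). Mural cells had 3 higher (Hoxb7, Hoxb8 and Hoxc4) and 1 lower, Hoxa11 (all genes 6.74% higher and 5.21% lower). At a clustering resolution of 1.0 the higher count was 5, with Hoxb4 and Hoxc8 added. The Hoxb7 and Hoxb8 ratios rest on 1 to 6 UMIs in each class. The filter adds up all groups of cells, and Hoxb4, Hoxb7, Hoxb8 and Hoxd3 reach 100 UMIs in both libraries only with their endothelial UMIs. Hoxc4 and Hoxd3 do so only with their stromal UMIs, and likewise only with their cartilage UMIs. The filter thus takes in genes by the groups compared, and the Hox counts, higher or lower, cannot be set against the shares of all genes. The median log2 ratio to stromal cells over the 16 Hox genes was -4.22 and -4.47 in haematopoietic cells (0.38 and 0.33 over all 10879 genes). It was -0.49 and -0.35 in cartilage cells (all genes -0.19 and -0.22), 0.36 and -0.13 in endothelial cells (all genes 0.14 and 0.08) and 0.38 and -0.29 in mural cells (all genes 0.20 and 0.14). The haematopoietic medians were the lowest, while the endothelial and mural medians changed sign between the libraries, and the limit set by the filter holds for the medians as well.

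Stromal and cartilage cells shared the same leading genes, Hoxc10, Hoxa10 and Hoxa9. Hoxc10, a hindlimb gene that also has a part in the patterning of lumbar motor neurons, was at 140.5 CPM (130.5 to 151) in the wild-type library and 129 (117 to 141) in the Bmx-CreER Wls library in stromal cells. In cartilage it was at 116 (109 to 124) and 126 (119.9 to 133), in mural cells at 82.7 (60.1 to 111) and 96.7 (73.3 to 125) and in endothelial cells at 4.96 (2.38 to 9.13) and 4.38 (1.89 to 8.63). Hoxc10 was thus high in the skeletal, stromal and mural cells of both libraries and low in endothelium. A Hoxc10 UMI was found in 35.5% and 33.6% of stromal and 30.8% and 30.8% of cartilage cells, and in 0% and 1.37% of erythroid-like cells. After thinning the shares were 12.95% and 11.7% in stromal, 12.4% and 12.6% in cartilage and 0% and 1.43% in erythroid-like cells. Hoxa10, which shapes the femur and the lumbar vertebrae, had 103 (94.0 to 112) and 126 (114 to 138) CPM in stromal and 73.2 (67.2 to 79.5) and 93.5 (88.2 to 99.2) in cartilage cells. For Hoxa9, a paralogue that acts with Hoxd9 in the upper limb segment and is best known from blood, the values were 107 (98.4 to 116) and 109 (98.8 to 121) in stromal and 61.5 (56.1 to 67.4) and 71.2 (66.5 to 76.2) in cartilage cells. Cartilage was below stroma for Hoxa10, with ratios of 0.714 (0.632 to 0.806) and 0.745 (0.667 to 0.833), and for Hoxa9, with 0.574 (0.507 to 0.651) and 0.651 (0.577 to 0.736). Hoxc9, a gene of thoracic vertebrae and motor neurons, had 49.8 (43.9 to 56.3) and 42.8 (36.3 to 50.1) CPM in stromal and 21.9 (18.7 to 25.5) and 26.4 (23.6 to 29.4) in cartilage cells. Hoxc6, a gene of the thoracic region, was at 30.2 (25.7 to 35.4) and 23.2 (18.49 to 28.8) in stromal cells, where it was among the 5 genes with the most UMIs in the wild type and behind Hoxd8 in the Bmx-CreER Wls library. In cartilage Hoxd8 had more UMIs than Hoxc9 in both libraries, at 30.8 (26.9 to 35.0) and 35.2 (31.9 to 38.7) CPM. The cartilage to stromal ratio was 0.440 (0.360 to 0.537) and 0.616 (0.507 to 0.752) for Hoxc9 and 0.489 (0.380 to 0.628) and 0.775 (0.599 to 1.01) for Hoxc6, where the second interval includes 1. Hoxa11, which patterns the shank and forearm, was lower than its neighbour Hoxa10, with 14.0 and 18.7 CPM in stromal and 10.96 and 15.8 in cartilage cells. Levels of different genes were also compared per kb of the longest transcript. A UMI counts a transcript once whatever its length, so orders on this scale can differ from those by UMIs. Hoxc10 led both classes on either scale, with 73.6 and 67.5 CPM per kb in stromal and 60.9 and 66.1 in cartilage cells. Next on the per-kb scale came Hoxa10, with 40.0 and 49.0 in stromal and 28.5 and 36.5 in cartilage cells, and then Hoxa9, with 33.2 and 33.9 in stromal and 19.1 and 22.1 in cartilage cells. Per kb, Hoxd8 came next in cartilage, with 11.7 and 13.3, and Hoxa5, a gene of lung and cervical development, replaced Hoxc9 among the 5 leading cartilage genes, at 9.92 and 12.8 against 9.24 and 11.1 CPM per kb.

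**Figure D4:**
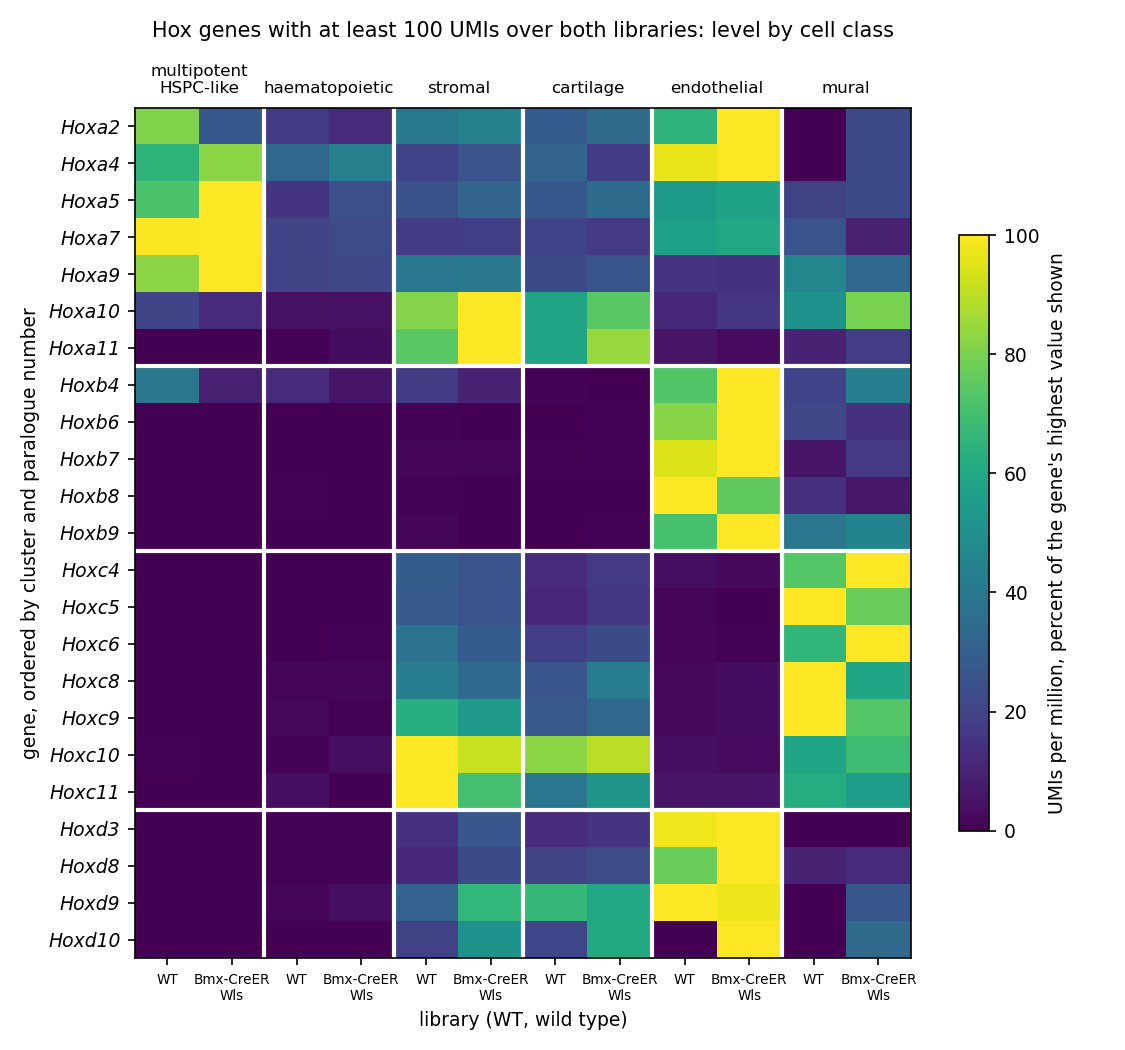
Hox genes that reach 100 UMIs when the libraries are added, in order of cluster and paralogue number, with the level as percent of each gene's highest value among the groups of cells shown (colour), in each library (columns). Hoxc10, Hoxa10 and Hoxa11 are brightest in stromal cells, Hoxb4 to Hoxb9 in endothelial, Hoxc4 to Hoxc9 in mural and Hoxa5 to Hoxa9 in multipotent HSPC-like cells.

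Within cartilage, Hoxd8 and Hoxd9 were the genes with over 50 superficial UMIs in each library that separated the superficial chondrocyte or synovial-like cluster from the hypertrophic cluster most widely. These ratios are relative to total UMIs, and hypertrophic cells had the higher median depth. Hoxd8 was at 106 (86.4 to 129) and 65.4 (55.1 to 77.0) CPM in superficial and 7.09 (3.97 to 11.7) and 7.65 (4.61 to 11.95) in hypertrophic cells, a ratio of 14.96 (8.65 to 27.7) and 8.54 (5.28 to 14.6). Hoxd9 was at 54.6 (40.8 to 71.6) and 30.6 (23.7 to 38.9) in superficial and 4.26 (1.95 to 8.08) and 2.01 (0.654 to 4.70) in hypertrophic cells, a ratio of 12.8 (6.27 to 29.6) and 15.2 (6.20 to 48.4). Also higher in superficial cells were Hoxc10, with a ratio of 3.76 (2.95 to 4.82) and 2.93 (2.41 to 3.58), Hoxa10, with 3.87 (2.86 to 5.27) and 2.28 (1.80 to 2.90), and Hoxa9, with 3.04 (2.07 to 4.48) and 2.64 (2.02 to 3.46). By contrast Hoxc9, at a ratio of 1.03 (0.564 to 1.81) and 0.865 (0.582 to 1.28), and Hoxc6, at 0.996 (0.475 to 1.98) and 1.11 (0.684 to 1.79), did not differ beyond counting error, so the lower Hox sum of hypertrophic cells was not shared by every gene. Superficial cells drew 26.4% and 18.48% of their Hox UMIs from Hoxd, hypertrophic cells 5.05% and 4.06%, the Epyc-led cluster 5.05% and 9.18% and the Ucma-led cluster 16.9% and 12.4%. Hoxd8 was likewise higher in tendon-like than in fibroblast-like cells, at ratios of 4.26 (2.63 to 7.10) and 2.01 (1.26 to 3.32), as was Hoxd9, at 8.25 (3.58 to 22.1) and 2.34 (1.22 to 4.84). Hoxc6 went the other way in the same comparison, at 0.406 (0.229 to 0.683) and 0.597 (0.341 to 1.05), with 1 inside the second interval. Osteoblast-like cells had less Hoxc10 than fibroblast-like cells, with 66.01 and 58.3 against 183 and 156 CPM and ratios of 0.361 (0.287 to 0.450) and 0.375 (0.270 to 0.514), and less Hoxa10, with ratios of 0.634 (0.501 to 0.797) and 0.461 (0.335 to 0.628). Hoxa5 and Hoxa7 were higher in osteoblast-like cells, at 3.30 (1.97 to 5.67) and 1.81 (1.001 to 3.37) times the fibroblast-like level for Hoxa5 and 3.61 (1.92 to 7.12) and 2.47 (1.18 to 5.53) times for Hoxa7. Osteoblast-like cells thus had more Hoxa5 and Hoxa7 and less Hoxa10 than fibroblast-like cells, with the Hoxa5 interval of the Bmx-CreER Wls library reaching down to 1. In the unnamed clusters Hoxc10 was at 153 and 152 in cluster 6 and 164 and 185 in cluster 7, and Hoxd8 at 66.4 and 95.6 in cluster 6 and 86.3 and 99.6 CPM in cluster 7.

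Endothelial cells held most of the Hoxb UMIs of the femur. Hoxb8, a central gene known for blocking the maturation of myeloid progenitors when overexpressed, had 162 of 173 UMIs in the wild type and 111 of 116 in the Bmx-CreER Wls library in this class. Its endothelial level was 80.4 (68.5 to 93.8) and 60.8 (49.99 to 73.2) CPM, against 2 and 1 UMIs in all stromal cells, a ratio of 207 (56.5 to 1728) and 217 (38.2 to 8657). For Hoxb7, its neighbour, 118 of 130 UMIs in the wild type and 113 of 130 in the Bmx-CreER Wls library were endothelial, at 58.6 (48.5 to 70.2) and 61.9 (51.0 to 74.4) CPM and a ratio to stroma of 75.6 (28.7 to 282) and 73.7 (24.6 to 363). Both genes were thus largely endothelial, and their stromal counts were only 1 to 4 UMIs. Hoxb9, a gene of thoracic vertebrae, was at 37.2 (29.3 to 46.7) and 52.6 (42.6 to 64.2), with a ratio of 48.0 (17.998 to 181) in the wild type and at least 62.6-fold in the Bmx-CreER Wls library, where stromal cells had 0 UMIs. Hoxb6, at 29.3 and 35.6, and Hoxb5, a gene known as a mark of long-term blood stem cells, at 18.4 and 22.4 CPM, had wild-type ratios of 75.6 (20.01 to 639) and 31.6 (10.004 to 160.2) and were at least 42.4-fold and at least 26.7-fold higher than in stroma in the Bmx-CreER Wls library. Hoxb4, known for expanding blood stem cells when overexpressed, was less restricted, with 34.3 (26.7 to 43.4) and 47.1 (37.7 to 58.1) CPM and ratios of 4.21 (2.83 to 6.33) and 10.5 (6.12 to 19.2). In cartilage, Hoxb4 had 4 UMIs in the wild type and 1 in the Bmx-CreER Wls library, which is 0.0649 (0.0169 to 0.179) and 0.0185 (0.000442 to 0.119) times the stromal level. Outside Hoxb, Hoxd8 had the most endothelial UMIs, at 117 CPM (102 to 133) in the wild-type library and 151 (133 to 169) in the Bmx-CreER Wls library, 6.76 (5.28 to 8.73) and 4.49 (3.61 to 5.61) times the stromal level. Hoxa7 was at 41.7 (33.3 to 51.6) and 44.3 (35.2 to 55.1) CPM, 3.21 (2.30 to 4.50) and 3.24 (2.24 to 4.71) times the stromal level, and Hoxd3, a gene of the first neck vertebrae, at 27.3 and 27.9, 7.04 (4.16 to 12.4) and 3.70 (2.28 to 6.13) times. A Hoxd8 UMI was found in 27.1% and 35.7% of endothelial and 0% and 0% of erythroid-like cells, and after thinning in 11.3% and 12.5% of endothelial cells. For Hoxb8 the endothelial shares were 22.0% and 18.7% and the erythroid-like ones 0% and 0%, and after thinning the endothelial shares were 7.83% and 6.14%. The leading posterior genes of the stroma were low here: the endothelial to stromal ratio was 0.384 (0.301 to 0.485) and 0.365 (0.281 to 0.470) for Hoxa9, 0.136 (0.0892 to 0.198) and 0.157 (0.109 to 0.221) for Hoxa10 and 0.0353 (0.0169 to 0.0654) and 0.0340 (0.0146 to 0.0675) for Hoxc10. The posterior gene Hoxd9 went the other way, at 3.19 (2.07 to 4.93) and 1.47 (0.975 to 2.20), where the second interval includes 1. Per kb, 2 genes led the endothelial class, Hoxb7 with 45.4 and 47.9 CPM per kb and Hoxd8 with 44.3 and 57.2, and Hoxb7 was ahead in the wild type only. By UMIs Hoxd8 was ahead in both libraries, with 235 and 275 against 118 and 113 for Hoxb7. Next on the per-kb scale were Hoxb8 with 30.5 and 23.1, Hoxa7 with 20.5 and 21.8 and Hoxa5 with 19.6 and 20.7.

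The promoters of Hoxd8 and Hoxb8 are shown because these genes had the most UMIs among the endothelial Hox genes over both libraries and, as described next, opposite patterns within endothelium. The sequences run from 250 bases before to 50 after the start of the gene, are taken from RefSeq on GRCm38.p6, and lie at chr2:74704365-74704664 and chr11:96281655-96281954 on the plus strand. Capitals mark matches, on either strand, to any of 4 motifs: TGACAG or CTGTCA (Meis), TGATTNAT or ATNAATCA (Pbx with Hox), CCAAT or ATTGG (known as the CCAAT box) and TATAAA or TTTATA (known as the TATA box). The Hoxd8 window held 1 match, a CCAAT box, and the Hoxb8 window 3, a CCAAT box and 2 TATA boxes on the opposite strand. Of 32851 promoters of the same length, 19.18% held the Meis letters, 3.221% those of Pbx with Hox, 37.41% a CCAAT box and 13.62% a TATA box. The table held 24 promoters of 22 of the Hox genes, of which 2 had the Meis letters, 2 those of Pbx with Hox, 15 a CCAAT box and 4 a TATA box. A match is a description, not a site or a cause.
Hoxd8: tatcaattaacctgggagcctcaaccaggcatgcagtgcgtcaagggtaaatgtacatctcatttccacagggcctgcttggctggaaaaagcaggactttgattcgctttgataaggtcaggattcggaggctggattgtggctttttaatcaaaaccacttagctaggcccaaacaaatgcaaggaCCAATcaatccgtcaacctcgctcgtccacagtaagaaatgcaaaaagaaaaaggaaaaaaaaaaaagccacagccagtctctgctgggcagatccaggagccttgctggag
Hoxb8: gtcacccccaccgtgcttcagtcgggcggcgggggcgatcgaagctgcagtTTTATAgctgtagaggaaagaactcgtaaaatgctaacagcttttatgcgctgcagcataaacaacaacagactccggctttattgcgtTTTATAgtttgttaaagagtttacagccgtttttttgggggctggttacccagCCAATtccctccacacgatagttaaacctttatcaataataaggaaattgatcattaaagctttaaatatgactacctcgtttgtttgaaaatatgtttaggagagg

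Arteries and sinusoids differed in the Hox genes they used. Hoxd8 was at 277 CPM (215 to 351) in the wild-type library and 431 (358 to 515) in the Bmx-CreER Wls library in arterial endothelial-like cells, 2.53 (1.86 to 3.42) and 3.74 (2.90 to 4.81) times the level of cluster 10 and 4.55 (2.96 to 7.12) and 8.06 (5.04 to 13.5) times that of sinusoidal endothelial-like cells. Hoxd9 followed it, at 93.6 (59.3 to 140.5) and 89.0 (57.6 to 131) in arterial cells and 4.10 (2.26 to 7.38) and 5.70 (2.99 to 11.1) times cluster 10, with 0 and 2 UMIs in sinusoidal cells. Hoxd3 was at 81.4 (49.7 to 126) and 85.5 (54.8 to 127), 3.44 (1.85 to 6.30) and 3.94 (2.16 to 7.19) times cluster 10. Arterial cells thus had the high Hoxd values in both libraries, and Hoxd gave 50.9% and 58.2% of their Hox UMIs, against 28.0% and 25.4% in cluster 10 and 12.9% and 11.6% in sinusoidal cells. Hoxb8 ran the other way, at 36.6 (16.8 to 69.5) and 32.0 (14.7 to 60.8) in arterial, 76.6 (61.9 to 93.8) and 55.5 (42.7 to 70.9) in cluster 10 and 109 (82.9 to 140.4) and 96.7 (68.4 to 133) in sinusoidal cells. The arterial to sinusoidal ratio of Hoxb8 was 0.337 (0.147 to 0.683) and 0.331 (0.141 to 0.697), and the sinusoidal level was 1.42 (1.01 to 1.99) and 1.74 (1.13 to 2.64) times that of cluster 10. Sinusoidal cells drew 58.6% and 57.4% of their Hox UMIs from Hoxb, arterial cells 27.5% and 23.6%. Hoxb7 did not follow Hoxb8, with an arterial level 2.68 (1.65 to 4.29) and 1.39 (0.835 to 2.23) times that of cluster 10. The endothelial to stromal difference in Hoxd8 was not carried by arteries alone: cluster 10 had 109 and 115 and sinusoidal cells 60.9 and 53.4 CPM, against 17.2 and 33.6 in stroma. These values rest on 75 and 67 arterial and 144 and 87 sinusoidal cells.

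**Figure D5:**
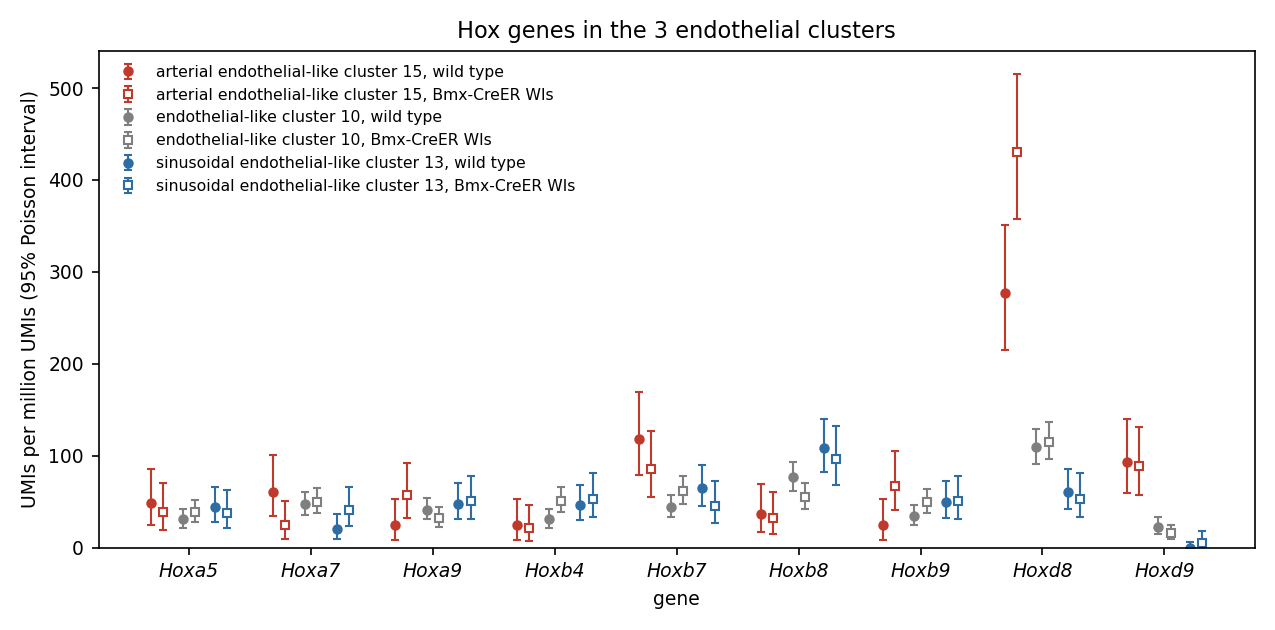
Levels (CPM) of 9 Hox genes in arterial endothelial-like cells (red), cluster 10 (grey) and sinusoidal endothelial-like cells (blue), filled for the wild type and open for the Bmx-CreER Wls library, with exact 95% Poisson intervals. Hoxd8 and Hoxd9 are highest in arterial cells and Hoxb8 is highest in sinusoidal cells.

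Mural cells combined the posterior genes of the stroma with a strong contribution of central Hoxc genes. Hoxa9 was at 124 (95.9 to 158) and 91.6 (68.8 to 119.6), Hoxa10 at 63.9 (44.2 to 89.3) and 100.1 (76.2 to 129) and Hoxc9 at 78.9 (56.9 to 107) and 57.7 (40.0 to 80.6) CPM. Hoxc6 was at 52.6 CPM (35.0 to 76.0) in the wild-type library and 79.8 (58.6 to 106) in the Bmx-CreER Wls library, 1.74 (1.12 to 2.61) and 3.44 (2.35 to 4.97) times the stromal level. Hoxc4 (30.1 and 40.7 CPM) was 2.50 (1.35 to 4.39) and 3.94 (2.25 to 6.76) times and Hoxc5 (26.3 and 20.4) 3.48 (1.75 to 6.55) and 3.03 (1.38 to 6.31) times as high as in stroma. Hoxc4, Hoxc5 and Hoxc6 were thus above the stromal level in both libraries, and Hoxc10 was below it, at ratios of 0.588 (0.424 to 0.798) and 0.750 (0.559 to 0.989). In the 112 cells per library that stayed mural at the finer resolution, Hoxc6 was at 57.2 and 86.5, Hoxc4 at 42.9 and 36.0, Hoxa9 at 160.2 and 115 and Hoxc10 at 106 and 98.5 CPM, a selection made after seeing the data. Hoxb9 was the most abundant Hoxb gene of mural cells by UMIs, at 20.7 and 23.8 against 37.2 and 52.6 in endothelium, and in the 112 cells it had 0 UMIs in either library. Hoxb8 had 6 and 3 UMIs in the whole class and 4 and 3 in those cells. Hoxd8 was low in mural cells, at 15.03 and 18.7. On the per-kb scale Hoxc10 was first in mural cells with 43.3 and 50.7 CPM per kb, followed by Hoxc6 with 33.3 and 50.4, Hoxa9 with 38.4 and 28.4, Hoxc9 with 33.2 and 24.3 and Hoxa10 with 24.9 and 39.0, in an order that differed between the libraries.

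In blood the Hox UMIs were concentrated in multipotent HSPC-like cells and in a few Hoxa genes. Hoxa9 was at 225 CPM (194 to 261) in the wild-type library and 273 (228 to 324) in the Bmx-CreER Wls library in these cells, 10.3 (7.995 to 13.4) and 11.9 (8.76 to 16.3) times the level of the other haematopoietic cells. This was also 2.10 (1.77 to 2.49) and 2.49 (2.03 to 3.05) times the stromal and 5.47 (4.19 to 7.18) and 6.82 (5.08 to 9.22) times the endothelial level of Hoxa9. Hoxa7 was at 73.4 (55.9 to 94.7) and 74.0 (51.5 to 103) and Hoxa5 at 48.5 (34.5 to 66.4) and 67.6 (46.3 to 95.5) CPM, which is 15.2 (9.10 to 26.3) and 9.99 (5.65 to 18.1) times the other haematopoietic cells for Hoxa7 and 14.1 (7.58 to 27.5) and 8.34 (4.73 to 14.9) times for Hoxa5. Hoxa9 and Hoxa7 were thus highest in multipotent HSPC-like cells in both libraries, while Hoxa5 in the wild type was as high in arterial endothelial-like cells, at 48.8 and 39.2. For Hoxa7 the wild-type lead over arterial endothelial-like cells, which had 15 UMIs, does not exceed counting error. Hoxa10 was lower, at 26.1 (16.2 to 40.0) and 14.8 (5.95 to 30.5), and 0.255 (0.157 to 0.394) and 0.118 (0.0471 to 0.245) times the stromal level. Hoxb4 had 15 and 2 UMIs in multipotent HSPC-like cells, a level of 18.7 (10.5 to 30.8) and 4.23 (0.512 to 15.3) CPM, which is 2.29 (1.18 to 4.22) and 0.944 (0.105 to 4.02) times the stromal level. Hoxc gave 0.302% and 0% of the Hox UMIs of these cells, and Hoxd had 0 UMIs in them. A Hoxa9 UMI was found in 61.0% and 62.2% of multipotent HSPC-like and 7.56% and 9.59% of erythroid-like cells, and after thinning in 22.3% and 29.6% of multipotent HSPC-like and 1.78% and 1.43% of erythroid-like cells. Over the whole haematopoietic class Hoxa9 was at 53.6 and 58.6, Hoxa7 at 15.5 and 16.9, Hoxa5 at 10.5 and 16.6, Hoxa10 at 5.83 and 6.35 and Hoxb4 at 5.63 and 2.72 CPM. Per kb, Hoxa9 led the class with 16.6 and 18.2 CPM per kb, before Hoxa7 with 7.65 and 8.33 and Hoxa5 with 5.59 and 8.85, which changed places between the libraries. The lineage depletion removed maturing blood cells before capture, so these levels describe the blood cells that it left.

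The remaining genes are given by their UMIs in each library. Over all barcodes of each library, Hoxc8, a gene of the thoracolumbar vertebrae, had 255 and 366 UMIs, Hoxc4 129 and 167, Hoxc11 89 and 91, Hoxc5 81 and 98, Hoxa4 59 and 57, Hoxa2 50 and 66 and Hoxa3 38 and 39. Hoxa13 and Hoxd13, which pattern the foot, were counted 15 and 29 times for Hoxa13 and 15 and 5 times for Hoxd13. Of these, 14 and 1 Hoxd13 UMIs were stromal, and Hoxa13 had 5 and 15 in the unnamed cluster 7. The foot genes were thus rare in both libraries. Hoxd10, a gene of the lower hindlimb and its motor neurons, had 21 and 93 UMIs, and Hoxd11 13 and 22. Hoxb2 had 19 and 12, Hoxa6 12 and 15, Hoxb3 3 and 4, Hoxb1 1 and 1, Hoxd1 1 and 1 and Hoxc13, a gene of hair and nail, 1 and 0 UMIs. Some gene models overlap, and how reads in shared sequence were counted, and whether strand was used, is not given in the sources used here. In the annotation used for positions, 62.4% of the exonic bases of Hoxd3 are shared on the same strand, with Hoxd4 among the genes concerned, and Hoxd4 was not listed. Smaller parts are shared by Hoxa2 (15.04%), Hoxd11 (10.8%), Hoxc10 (8.70%), Hoxa3 (8.02%), Hoxd10 (5.73%), Hoxc5 (5.37%) and Hoxa9 (1.52%). Antisense genes cover 52.9% of Hoxb3, 35.0% of Hoxa11, 27.3% of Hoxb2, 25.4% of Hoxa3, 20.4% of Hoxa7 and 16.0% of Hoxa4, and less of other Hox genes.

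Between the libraries, class sums differed less than haematopoietic cells differed from the other classes, and about as much as endothelial, mural and stromal cells differed from each other. The ratio of the Bmx-CreER Wls library to the wild type was 1.17 (1.12 to 1.23) in cartilage and 1.13 (1.04 to 1.22) in endothelial cells. It was 1.04 (0.986 to 1.10) in stromal, 1.05 (0.908 to 1.23) in mural and 1.13 (0.991 to 1.29) in haematopoietic cells, whose intervals include 1. The cartilage clusters did not move together, with 1.19 (1.10 to 1.28) in the Epyc-led, 1.15 (1.02 to 1.30) in the hypertrophic, 1.06 (0.977 to 1.14) in the Ucma-led and 0.872 (0.793 to 0.960) in the superficial cluster. With the cartilage clusters weighted as in the wild type, an alternative added after seeing the data, the cartilage ratio was 1.08. In endothelial cells Hoxd8 had a ratio of 1.29 (1.08 to 1.54) and Hoxb8 one of 0.756 (0.588 to 0.968). Within the arterial endothelial-like cluster, where Bmx-driven Cre acts, the ratio was 1.19 (0.997 to 1.43) for the Hox sum and 1.56 (1.15 to 2.13) for Hoxd8. Cluster 10 had a sum ratio of 1.12 (1.004 to 1.24) and sinusoidal cells one of 0.987 (0.825 to 1.18). Hoxd8 and Hoxd9 were higher in stromal cells of the Bmx-CreER Wls library, at ratios of 1.95 (1.47 to 2.59) and 2.11 (1.397 to 3.22), and lower in its superficial cells, at 0.616 (0.474 to 0.803) and 0.561 (0.385 to 0.822). In the Epyc-led cartilage cluster they were higher, at 1.78 (1.22 to 2.61) and 2.56 (1.29 to 5.43), and in the Ucma-led cluster the ratios were 0.910 (0.688 to 1.21) and 0.528 (0.369 to 0.759). Tendon-like cells, which have more Hoxd8 than fibroblast-like cells, made up 25.2% and 46.1% of the stromal UMIs, and within the tendon-like cluster the Hoxd8 ratio was 1.08 (0.765 to 1.54). In fibroblast-like cells it was 2.29 (1.25 to 4.18) and in osteoblast-like cells 4.82 (1.66 to 16.9), on 5 and 15 UMIs. Hoxa10 was higher in the Bmx-CreER Wls library, at ratios of 1.23 (1.08 to 1.39) in stromal, 1.28 (1.15 to 1.42) in cartilage and 1.57 (1.01 to 2.47) in mural cells. In superficial cells it was lower there, at 0.781 (0.623 to 0.983), and the ratio was 0.924 (0.663 to 1.28) in osteoblast-like and 0.566 (0.203 to 1.38) in multipotent HSPC-like cells. Hoxc8 had a ratio of 1.602 (1.26 to 2.04) in cartilage and 0.831 (0.596 to 1.15) in stromal cells. In multipotent HSPC-like cells the sum ratio was 1.09 (0.915 to 1.30), in the other haematopoietic cells together 1.33 (1.08 to 1.64) and without the blood groups led by markers of other classes 1.22 (0.952 to 1.57), an interval that includes 1. Whether any of these differences follows the genotype was not tested, and it cannot be told apart from the litter or the preparation.

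Meis, Pbx and Pknox proteins bind DNA together with Hox proteins, and all 9 listed genes of this group were present in the files. Their summed level was 498 and 488 CPM in multipotent HSPC-like, 351 and 378 in stromal, 229.5 and 277 in cartilage, 302 and 306 in endothelial, 453 and 448 in mural and 199 and 207 in erythroid-like cells. From multipotent HSPC-like to erythroid-like cells these sums fell less than the Hox sums did. Which member was present differed more, with Meis1 at 149 and 131 in multipotent HSPC-like and 22.9 and 24.1 in stromal cells. Meis1 was on the marker list that named the multipotent HSPC-like cells. Its level there, and its part in their sum, are thus not independent of the naming. Meis2 was at 40.3 and 65.5 in stromal, 35.4 and 62.8 in cartilage and 37.6 and 71.3 in mural cells and had 0 UMIs in multipotent HSPC-like cells. In endothelial cells Meis1 was at 2.98 and 1.09 and Meis2 at 3.97 and 10.4. Of 18 listed limb genes, 16 were in the files, and they summed to 627 and 658 in stromal, 503 and 534 in cartilage, 286 and 256 in mural, 114 and 99.6 in endothelial and 12.6 and 13.6 CPM in haematopoietic cells. The unnamed clusters together lay above these classes, at 872 and 833. Pitx1, the factor that gives the hindlimb its identity, was at 95.7 and 121 in stromal, 68.7 and 119 in cartilage and 4.47 and 4.38 in endothelial cells. Tbx4, its hindlimb partner, was at 29.6 and 37.2 and Tbx5, the forelimb counterpart, at 47.9 and 41.7 in stromal cells, and Tbx5 reached 147 and 139 in the unnamed clusters. Among stromal, cartilage and unnamed cells with a Tbx5 UMI, 46.6% and 56.8% also had a Pitx1 or Tbx4 UMI. The share was 29.6% and 37.5% of all cells of these groups, and the source of the Tbx5 UMIs was not tested. Msx1, another limb gene, was at 114 and 114 in arterial cells against 25.8 and 29.6 in the whole endothelial class.

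Of 13 other listed genes inside the Hox clusters, 7 were in the files under the listed symbols, and these were highest in endothelial cells among the following, with 47.7 and 42.7 CPM in endothelial, 20.7 and 20.4 in mural and 11.8 and 8.39 in stromal cells. A further feature named HOTAIRM1_5, at 3.97 and 4.38 in endothelial cells, was counted apart and is not in these sums. Hoxb3os, transcribed opposite to Hoxb3, was at 31.3 and 34.5 in endothelial and 5.04 and 2.52 in stromal cells, while Hoxb3 itself had 3 and 4 UMIs in the whole libraries. Endothelium was thus the site of Hoxb transcripts from both strands, as far as the counting separates them. The 10 of 11 listed neighbours of the clusters that were in the files did not share this pattern: Skap2, beside Hoxa, was at 100.2 and 81.6 in haematopoietic and 8.32 and 6.14 in cartilage cells, and Cbx5, beside Hoxc, at 353 and 379.8 in haematopoietic and 160.3 and 189.7 in cartilage cells, and all together at 1258 and 1193 in haematopoietic, 443 and 442 in stromal and 441 and 473 CPM in endothelial cells. The 12 genes for regulators of Hox chromatin, among them the Trithorax gene Kmt2a and the Polycomb gene Ezh2, summed to 1367 and 1306 CPM in multipotent HSPC-like, 986 and 999.8 in erythroid-like, 538 and 629 in stromal and 472 and 538 in cartilage cells. Ezh2 was at 338 and 316 in erythroid-like, 391 and 351 in multipotent HSPC-like and 98.1 and 117 in stromal cells, and Kmt2a at 86.7 and 106 in erythroid-like, 217 and 190.2 in multipotent HSPC-like and 102 and 109.9 in stromal cells. The caudal genes Cdx1, Cdx2 and Cdx4 were in neither file.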

How the data were processed

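The deposited counts are UMIs per gene and cell barcode, made by the authors with bcl2fastq 2.19.1.403, UMI-tools 1.0.1, STAR 2.7.1a on mm10 and featureCounts 1.6.4; the annotation release and the handling of strand and of reads in shared sequence are not stated. The cell filter asked for over 200 genes, under 5000 genes and a mitochondrial share below 30%. Both libraries were scaled to 10000 UMIs per cell and clustered together in scanpy 1.11.5 (11 principal components, 20 neighbours, Leiden resolution 0.5, leidenalg 0.10.2) without Hox genes among the variable genes. Clusters were named by lists of marker genes. At least 3 markers of a list had to be 2-fold higher than in the other cells, with 10 CPM added to both levels. A marker of the same class also had to be among the 10 genes of the cluster with the highest fold. This rule was tightened after the clusters had been seen. Python 3.11.15, numpy 2.4.6, scipy 1.17.1, pandas 2.3.3, scikit-learn 1.9.0, igraph 0.11.9 and matplotlib 3.10.9 were used. The automatic threshold of Scrublet marked 38 wild-type cells (0.6625%) and 0 Bmx-CreER Wls cells (0%), which was not taken as a working call, so doublets were kept and the 5% of cells with the highest score were removed as an alternative.

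Levels are CPM summed over the cells of a group, with exact Poisson intervals; ratios have conditional binomial and shares Clopper-Pearson intervals. A count of 0 was set to the limit of 3 counts for a ratio. The members and the lists (cofactors of Hox proteins, limb genes, regulators of Hox chromatin, caudal genes, other genes in the Hox clusters, neighbours of the clusters) were chosen with earlier results of these data known. The 5 Hox genes with the most UMIs in each class over both libraries are given with values in both libraries, and other genes come from the lists; features singled out otherwise were chosen after their values were seen. Alternatives were other resolutions, filters, clusterings and sums. Promoters were read from RefSeq, and the scripts were checked on simulated data.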

Additional observations from a re-analysis of the deposited data

Results flagged for a closer look

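The summed Hox level changed in opposite directions between the libraries in different cartilage clusters, which is why these values are singled out. The ratio of the Bmx-CreER Wls library to the wild type was 1.19 in the Epyc-led chondrocyte-like cluster and 1.15 in hypertrophic chondrocyte-like cells, and 0.872 in superficial chondrocyte or synovial-like cells. With 1 library per genotype the difference was not tested. Hox UMIs were also found in barcodes outside the cell filter, which enter the totals of single genes over each library but no level or ratio: 29 in 262 wild-type and 27 in 205 Bmx-CreER Wls barcodes, or 65.6 (43.9 to 94.2) and 84.5 (55.7 to 123) CPM.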

How the results depend on the processing

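With 1 library per genotype, differences between the libraries cannot be told apart from litter, tamoxifen or preparation, and intervals cover counting error only. No paired analysis was possible because the libraries share no pairing beyond a replicate number of 1 in both labels, and no test was run. Cell names rest on marker lists, the mural cluster holds some muscle and Schwann cells, and overlapping gene models limit single-gene counts.

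A value was called the same while inside the 95% interval of the chosen setting, or, for a count of genes, within 1.5 times of it. It was called reversed only if that interval excluded 1 and the ratio crossed 1. Of the leading values, 255 stayed the same, 35 moved and 0 reversed, and of the others 527 stayed and 65 moved. Ratios whose interval held 1 did cross it: mural to stromal in the wild type (0.930 with the cell lists of the study, its mural cells being named here), endothelial to stromal in the wild type (0.994 as a mean over cells) and the mural ratio between libraries (0.979 in cells mural at both resolutions). The endothelial count of genes at least 2-fold higher was 6 to 7 and the mural one 3 to 5. The cause of each move was not tested. With the cell lists of the study, the wild-type ratio to stromal cells was 0.237 for haematopoietic, 0.797 for cartilage and 0.930 for mural cells. Only the lists of HSPCs, stromal and endothelial cells were used as the study gives them. The 953 cartilage and 45 mural cells were named here by the marker rule, from numbered clusters of 1999 listed cells. With cells of at least 1000 UMIs and under 10% mitochondrial UMIs the wild-type haematopoietic ratio was 0.196. With each library clustered on its own the cartilage ratio was 0.777 and 0.766, and the cartilage ratio between libraries 1.04. As a mean over cells, the haematopoietic ratio was 0.2199 and 0.224, the wild-type cartilage ratio 0.811, the Bmx-CreER Wls endothelial ratio 1.04 and the cartilage ratio between libraries 1.12. Without Hoxc10 the haematopoietic ratio was 0.232 and 0.235, the Bmx-CreER Wls cartilage ratio 0.772, the endothelial ratio 1.35 and 1.41 and the wild-type mural ratio 1.22. Paralogue groups 10 to 13 gave 7.55% and 10.4% of haematopoietic, 46.9% and 47.2% of stromal, 49.3% and 49.9% of cartilage, 3.41% and 4.48% of endothelial and 24.9% and 31.8% of mural Hox UMIs. With the top 5% of cells by Scrublet score removed, the Hoxa share of haematopoietic cells was 91.5% and 93.4%. Among settings chosen after seeing the data, leaving out blood groups led by other markers gave a Hoxa share of 90.8% and 94.5%, cells that stayed mural at resolution 1.0 gave a wild-type mural ratio of 1.26, wild-type cluster weights gave a cartilage ratio between libraries of 1.08, and resolution 1.0 gave 5 Hox genes at least 2-fold higher in mural cells.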
